A study of Mus musculus with 6 samples.

Results

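The genes described here encode enzymes that break down amino acids or that turn arginine into creatine, together with a few enzymes of polyamine and amine metabolism. They were taken from a list of 55 genes, chosen with earlier results of these data known. Each was read on a single probe set, the brightest on average across the 6 arrays of those annotated with that gene's symbol alone. Of the 55 genes, 54 were measured, out of 19937 genes on the array. The methylmalonyl-CoA mutase gene, listed as Mut, was found under its current symbol Mmut. Ass1 was not analysed here, because its probe sets also carry the symbol of a second gene. Whole-kidney RNA was profiled from 3 wild-type littermate controls, labelled Control, and from 3 mice labelled NICD, called NICD1 here, of genotype Pax8rtTA TREICNotch1. In this transgene pair, a Pax8-directed transactivator switches on the intracellular domain of Notch1, which signals without a ligand, in epithelial cells of the tubule. The inducing agent, the duration of induction, the age and the sex of the mice are not given in the sources used here. The labels also do not say whether the replicates of a group are separate animals, so p-values measure the spread between these samples, which may be partly technical. All values are log2 expression after the authors' RMA16 normalization, a difference is NICD1 minus Control, an SD is over n = 3 arrays, and adjusted p-values come from limma with Benjamini-Hochberg adjustment over all 19937 genes.

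The proximal tubule reabsorbs nearly all filtered amino acids and degrades part of them in its cytosol and mitochondria. The carbon skeletons feed the tricarboxylic acid cycle and gluconeogenesis, and the nitrogen is passed to glutamate, glutamine and ammonia. The kidney is also the main site of the first step of creatine synthesis, in which an amidino group is moved from arginine to glycine, and a main source of circulating arginine. Proximal tubule cells carry most of these enzymes, so in whole-kidney RNA fewer such cells and less RNA per cell cannot be told apart.

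The transgene and its known targets were higher on all 3 NICD1 arrays. Notch1 rose from 6.56 ± 0.11 to 10.19 ± 0.18 and its targets Nrarp, Heyl, Hes1, Hey1 and Jag1 all rose too, by between 1.56 (Hey1) and 5.66 log2 (Nrarp). Pearson correlations across genes were 0.991 to 0.994 among Control arrays, 0.985 to 0.99 among NICD1 arrays and 0.912 to 0.935 between the groups. Of 17 measured proximal tubule markers 16 fell, with a median difference of -2.83, and the log2 of their summed level was 14.94 to 15.03 in Control and 11.93 to 12.57 in NICD1 arrays. Of 12 myeloid cell markers 11 rose, with a median difference of 2.30 and a summed level of 8.85 to 8.95 in Control and 10.90 to 11.84 in NICD1 arrays. Of 6 fibroblast markers 4 rose. Of 9 markers of the distal tubule and collecting duct 7 fell, each by at least 2-fold, and 2 rose. Their median difference of -2.38 was near that of the proximal tubule markers. Of 4 measured hepatocyte markers 1 fell and 3 did not pass. Alb lay between 3.43 and 4.72 on all 6 arrays, below the median of every array. Ttr was the marker that fell, and its Control arrays stood apart, at 5.08, 9.24 and 9.15, against 4.50 to 5.08 in NICD1 arrays. The part of these cell types in the differences below was not tested. Xist lay between 2.72 and 3.11 and the Y-linked Eif2s3y between 7.0 and 7.93 on all 6 arrays, so both groups showed the same pattern of sex-linked genes.

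Expression of the amino acid breakdown genes was lower almost throughout in NICD1 kidneys. Of the 54 measured genes 46 fell, 3 rose and 5 did not pass the threshold of adjusted p under 0.05. Of all genes tested 14.9% fell and 17.8% rose at this threshold, together 32.7%, against 85.2% and 5.56% of the 54. The median difference of the 54 genes was -1.42, against 0.01 over all genes. At least a 2-fold fall was measured for 36 of them, or 66.7%, where 5.3% of all genes fell that far, and all 3 that rose did so by at least 2-fold, as did 4.65% of all genes. The NICD1 arrays lay below every Control array for 46 genes and above every Control array for 3, which over all genes was the case for 19.7% and 23.7%. The counts of falling genes lay between 43 and 46 when each array was left out in turn, and the count of rising genes stayed at 3. Centring each array on its median left both counts unchanged, although over all genes it moved the share of calls that were upward from 54.4% to 39.4%.

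**Figure D1:**
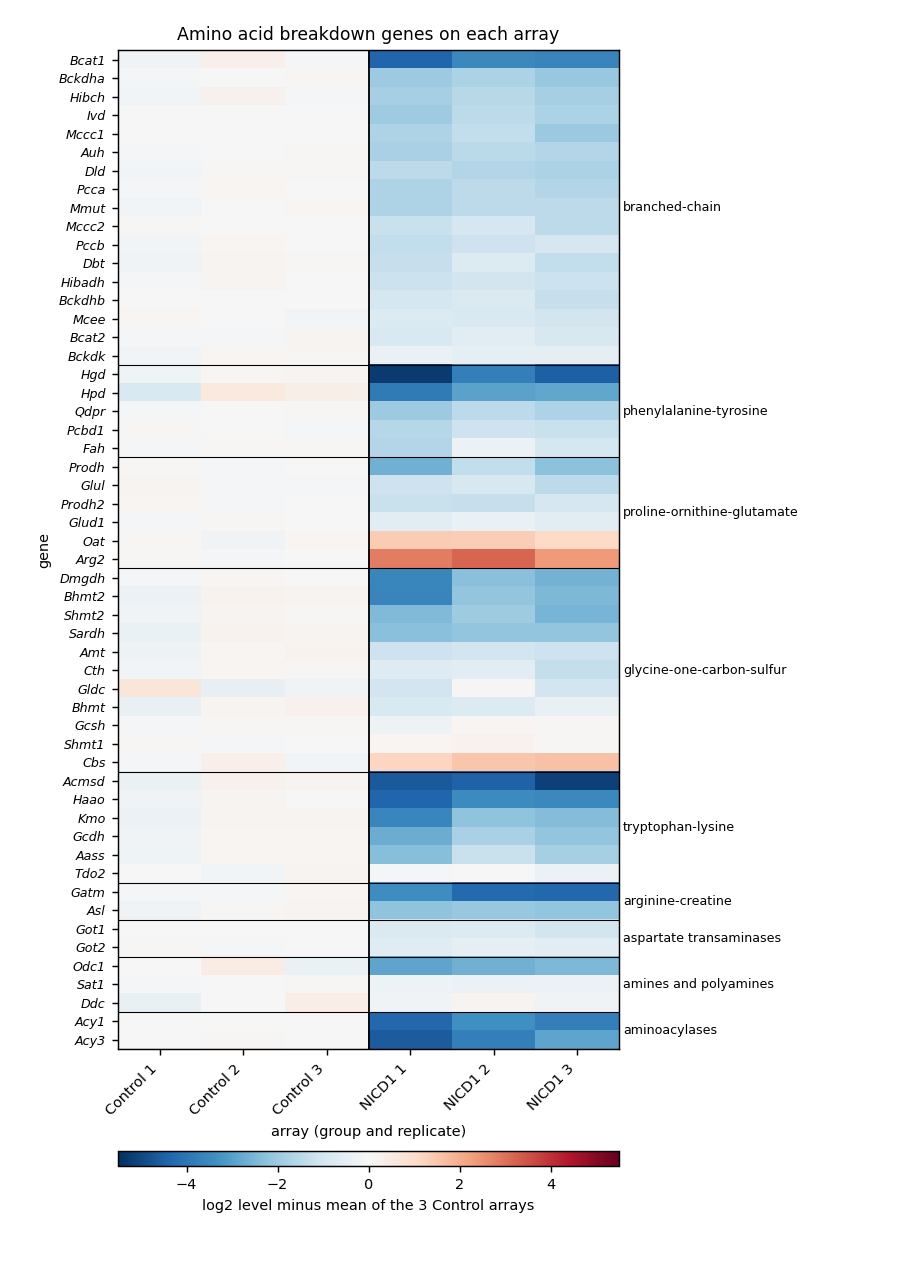
Log2 level of each of the 54 measured genes on each of the 6 arrays, minus the mean of the 3 Control arrays, with genes in rows grouped by role and arrays in columns. Blue marks a level below the Control mean and red one above it. The NICD1 columns are blue for 46 called genes, and the clear red rows are Oat, Arg2 and Cbs.

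Of the genes with large falls, 3 that hold the letters marked below are shown here with the stretch before their transcription start. Beside them stand 2 of the genes that rose. RefSeq promoter windows of assembly GRCm38.p6 were matched for 49 of the 54 genes; Dbt, Mmut, Arg2, Cth and Asl were not matched. Each line gives the 250 bases before the annotated start, 5′ to 3′ along the gene's strand, and capitals mark the letters AGGTCA or their complement on the other strand, the core that several nuclear receptors bind.
Hgd, chr16:37579903-37580152, plus strand: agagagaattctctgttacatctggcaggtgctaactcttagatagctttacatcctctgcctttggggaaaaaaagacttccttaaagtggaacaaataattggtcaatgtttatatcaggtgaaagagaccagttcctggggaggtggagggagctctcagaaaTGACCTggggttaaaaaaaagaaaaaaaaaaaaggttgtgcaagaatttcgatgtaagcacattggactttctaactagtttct
Gatm, chr2:122611278-122611527, minus strand: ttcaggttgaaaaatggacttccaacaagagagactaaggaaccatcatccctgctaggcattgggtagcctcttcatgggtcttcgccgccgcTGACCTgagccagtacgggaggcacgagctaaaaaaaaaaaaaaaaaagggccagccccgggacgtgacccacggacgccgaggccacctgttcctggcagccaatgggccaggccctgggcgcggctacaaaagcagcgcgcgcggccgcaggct
Haao, chr17:83846791-83847040, minus strand: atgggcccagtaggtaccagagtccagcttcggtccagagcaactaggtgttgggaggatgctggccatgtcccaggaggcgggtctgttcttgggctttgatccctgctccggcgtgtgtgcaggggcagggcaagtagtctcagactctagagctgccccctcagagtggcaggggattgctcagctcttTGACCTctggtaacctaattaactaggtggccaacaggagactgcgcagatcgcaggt
Oat, chr7:132576399-132576648, minus strand: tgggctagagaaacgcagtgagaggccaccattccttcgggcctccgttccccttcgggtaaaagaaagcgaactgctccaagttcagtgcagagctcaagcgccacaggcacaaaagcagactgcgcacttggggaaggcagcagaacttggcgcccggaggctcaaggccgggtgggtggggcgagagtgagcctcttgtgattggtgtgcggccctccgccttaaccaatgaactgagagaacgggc
Cbs, chr17:31637206-31637455, minus strand: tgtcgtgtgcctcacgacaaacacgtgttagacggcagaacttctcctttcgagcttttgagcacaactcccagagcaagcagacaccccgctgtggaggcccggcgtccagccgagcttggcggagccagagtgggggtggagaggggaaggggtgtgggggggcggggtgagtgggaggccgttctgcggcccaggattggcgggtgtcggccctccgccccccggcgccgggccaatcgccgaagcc

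The windows of Hgd, Gatm and Haao each held these letters a single time, starting 84, 156 and 58 bases before the start, and those of Oat and Cbs held none. Counted over genes, 18 of the 49 matched genes had the letters in a window. Of these, 16 were among the 42 matched genes that fell and 2 among the few other matched genes. As 42 of the 49 matched genes fell, these counts cannot tell whether the letters go with a fall. Counted over windows, 18 of 54 windows held them, or 33.3%, against 14.0% of all 32851 windows of this length. This was 1 of 10 motifs searched on both strands. The 3 printed falling genes were picked among those with a match, so the contrast between the printed windows was set by that choice. The HNF1 core GTTAAT was found in 9.26% of the windows and in 6.43% of all windows, and it is part of the longer HNF1 palindrome, the core followed after 1 base by its reverse complement, which was found in none of the 54. The HNF4 core CAAAGTC stood in 1.85% against 3.84% of all windows, and its longer form CAAAGTCCA and the direct repeat of AGGTCA with 1 base between the copies in none. The RBPJ core GTGGGAA was found in 3.7% against 5.42%, for Fah and Shmt1, the E-box CACGTG in 5.56% against 6.02%, for Acy1, Cbs and Mccc2, and the ATF4 motif TGATGNAA and the hypoxia element ACGTGC in 1.85% each, against 3.45% and 4.92%. A match describes the letters in a window, and none of these factors was measured on these promoters.

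Branched-chain amino acids are first transaminated, then decarboxylated by the branched-chain ketoacid dehydrogenase complex, and the products of leucine, isoleucine and valine are oxidised in the mitochondrion. All 17 genes of these steps fell, 14 of them by at least 2-fold, with a median difference of -1.53. Bcat1, the cytosolic transaminase, stood at 8.74, 9.20 and 8.85 in Control replicates 1 to 3 and at 4.57, 5.37 and 5.32 in NICD1 replicates 1 to 3. This was a 14.3-fold fall (-3.84 log2, SE 0.21, limma adjusted p = 2.38e-06), and the NICD1 levels lay below the array medians of 5.38 to 5.41, where RMA compresses differences. Bcat2, the mitochondrial transaminase, stood at 7.43, 7.39 and 7.62 in Control and at 6.66, 6.90 and 6.61 in NICD1 arrays, a difference of -0.76 (SE 0.12). Both transaminases were lower on every NICD1 array, and Bcat1 fell further, its change minus that of Bcat2 being -3.08 log2 (95% interval -3.91 to -2.26).

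The dehydrogenase complex consists of a decarboxylase with alpha and beta subunits, a transacylase core and a dehydrogenase shared with other complexes. Bckdha, its alpha subunit, stood at 9.43, 9.50 and 9.55 in Control and at 7.48, 7.76 and 7.42 in NICD1 arrays, a 3.84-fold fall (-1.94 log2, SE 0.12, limma adjusted p = 3.4e-06). The beta subunit Bckdhb stood at 8.11, 8.09 and 8.10 in Control and at 7.14, 7.32 and 6.83 in NICD1 arrays (-1.0, SE 0.13). The change of the alpha subunit minus that of the beta subunit was -0.94 log2 (95% interval -1.16 to -0.72). The transacylase Dbt and the shared dehydrogenase Dld fell with differences of -1.13 and -1.59 log2. Bckdk, the kinase that inactivates the complex, fell least of the 17 genes, from 8.45 ± 0.13 to 7.98 ± 0.10 (-0.47, SE 0.11, limma adjusted p = 0.00958).

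Downstream, the leucine enzymes Ivd and Auh fell, with differences of -1.70 and -1.63 log2. The valine enzymes Hibch and Hibadh fell as well (-1.71 and -1.12 log2), Hibch from 7.40, 7.80 and 7.50 in Control to 5.76, 6.05 and 5.75 in NICD1 arrays. A second probe set of Hibadh lay at 2.30 in Control and 2.46 in NICD1 (0.16, limma adjusted p = 0.433 over all probe sets), near the lowest levels on the array. Methylcrotonyl-CoA carboxylase of leucine breakdown is built of Mccc1 and Mccc2. Mccc1 went from 8.87 ± 0.02 to 7.17 ± 0.36, with NICD1 arrays at 7.18, 7.53 and 6.81, and Mccc2 from 8.41 ± 0.04 to 7.21 ± 0.25, with NICD1 arrays at 7.20, 7.47 and 6.97. Propionyl-CoA carboxylase, which receives carbon from valine, isoleucine and methionine, is built of Pcca and Pccb. Pcca stood at 8.96, 9.17 and 9.07 in Control and at 7.38, 7.62 and 7.46 in NICD1 arrays, and Pccb at 9.73, 9.98 and 9.91 and at 8.53, 8.75 and 8.94. For the biotin-carrying alpha subunits Mccc1 and Pcca, the change minus that of the partner was -0.50 and -0.44 log2, with 95% intervals of -0.69 to -0.32 and -0.76 to -0.12. Mmut and Mcee, which complete the route to succinyl-CoA, fell, with differences of -1.53 and -0.87 log2.

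**Figure D2:**
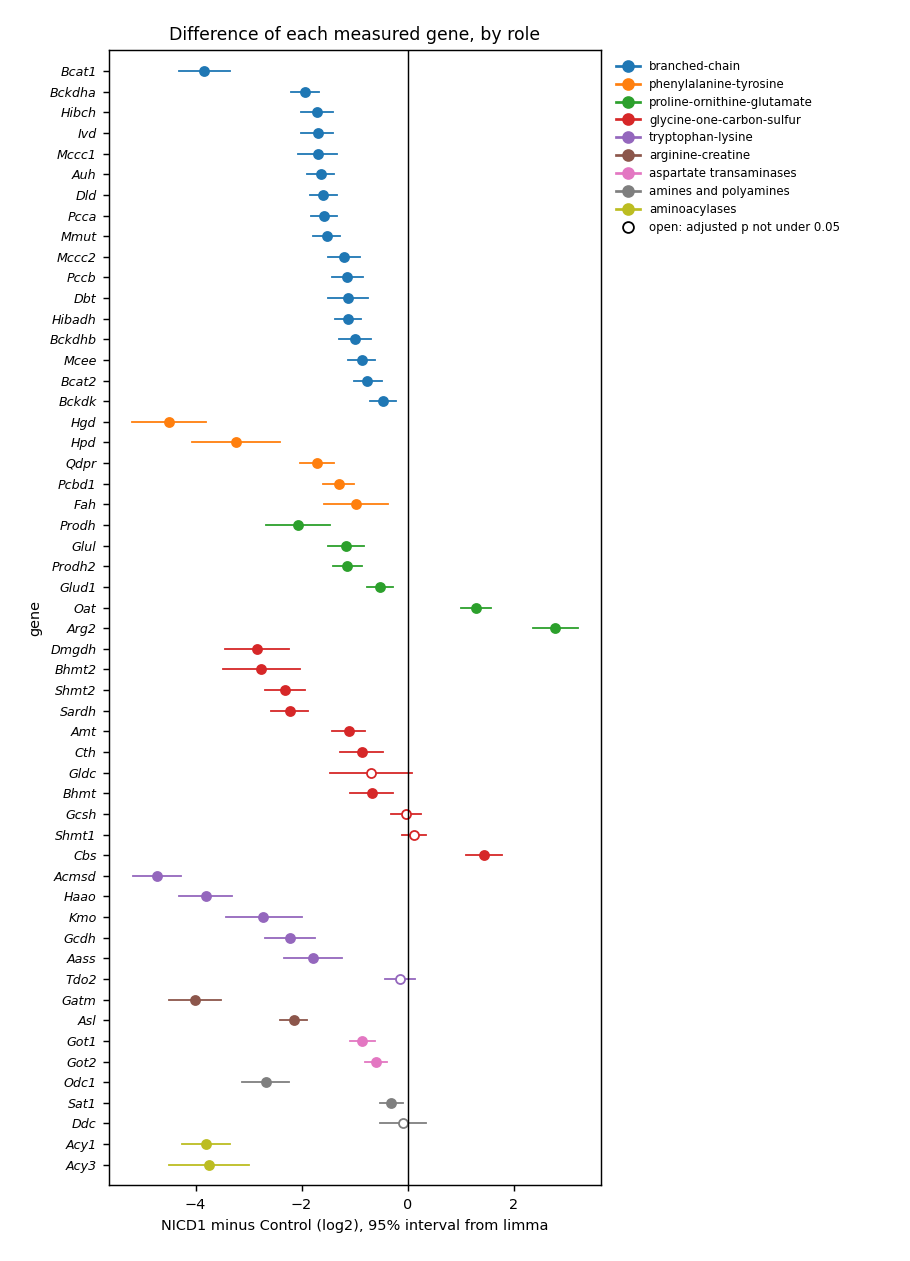
NICD1 minus Control difference (log2, horizontal axis) of the 54 measured genes, grouped and coloured by role, with the 95% interval from limma. Filled points passed adjusted p under 0.05, and open points did not. The branched-chain genes lie between -3.84 and -0.47, while Oat, Arg2 and Cbs lie to the right of 0.

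The genes of phenylalanine and tyrosine breakdown all fell, 5 of 5, with a median difference of -1.71. Hgd, the homogentisate dioxygenase in the middle of the route, stood at 10.29, 10.61 and 10.66 in Control and at 5.25, 6.75 and 6.03 in NICD1 arrays. This 22.8-fold fall (-4.51 log2, SE 0.31, limma adjusted p = 6.54e-06) came with a spread of 1.50 among NICD1 arrays and 0.37 among Control arrays. Hpd, which makes homogentisate, stood at 6.66, 8.06 and 7.83 in Control and at 3.63, 4.56 and 4.64 in NICD1 arrays (-3.24, SE 0.37, limma adjusted p = 0.000139). Replicate 1 was the lowest array of both groups for Hpd, and the groups did not overlap. Fah, the last enzyme of the route, was lower on every NICD1 array, at 8.31, 9.62 and 8.96 against 9.84, 10.00 and 9.99 (-0.98, SE 0.27, limma adjusted p = 0.0196). Without NICD1 replicate 1 its difference was -0.65, and the call was lost without Control replicate 2 or Control replicate 3 (-0.95 each). Qdpr and Pcbd1, which regenerate the tetrahydrobiopterin cofactor of phenylalanine hydroxylation, fell, with differences of -1.71 and -1.30 log2.

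The genes around proline, ornithine and glutamate moved in both directions: 4 fell and 2 rose. Arg2, the mitochondrial arginase that splits arginine into ornithine and urea, stood at 4.90, 4.80 and 4.86 in Control and at 7.68, 8.06 and 7.19 in NICD1 arrays. This was the largest rise among the 54 genes, 6.92-fold (2.79 log2, SE 0.19, limma adjusted p = 6.33e-06), from below to above the median of each array. Oat, the ornithine aminotransferase that acts next on ornithine, stood at 8.96, 8.70 and 9.01 in Control and at 10.28, 10.26 and 10.00 in NICD1 arrays, a 2.45-fold rise (1.29 log2, SE 0.13, limma adjusted p = 4.96e-05). For both genes every NICD1 array lay above every Control array, and the differences stayed between 2.58 and 3.02 for Arg2 and between 1.20 and 1.38 for Oat when each array was left out in turn. The myeloid markers rose on the same arrays with the values given above, and their part in these rises was not tested.

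Expression of Prodh and Prodh2 was lower, and Prodh yields the same intermediate as Oat. Prodh, the proline dehydrogenase, stood at 9.78, 9.68 and 9.72 in Control and at 7.10, 8.39 and 7.48 in NICD1 arrays, a 4.2-fold fall (-2.07 log2, SE 0.27, limma adjusted p = 0.000305). Prodh2, which oxidises hydroxyproline, stood at 6.98, 6.78 and 6.85 in Control and at 5.64, 5.62 and 5.94 in NICD1 arrays (-1.14, SE 0.12). The change of Prodh minus that of Prodh2 was -0.93 log2, with a 95% interval of -2.11 to 0.25 that includes 0. Glud1, which releases ammonia from glutamate, fell by 0.52 log2 (limma adjusted p = 0.00453). Glul, the glutamine synthetase, fell by 1.16 log2, and its second probe set gave -0.89.

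**Figure D3:**
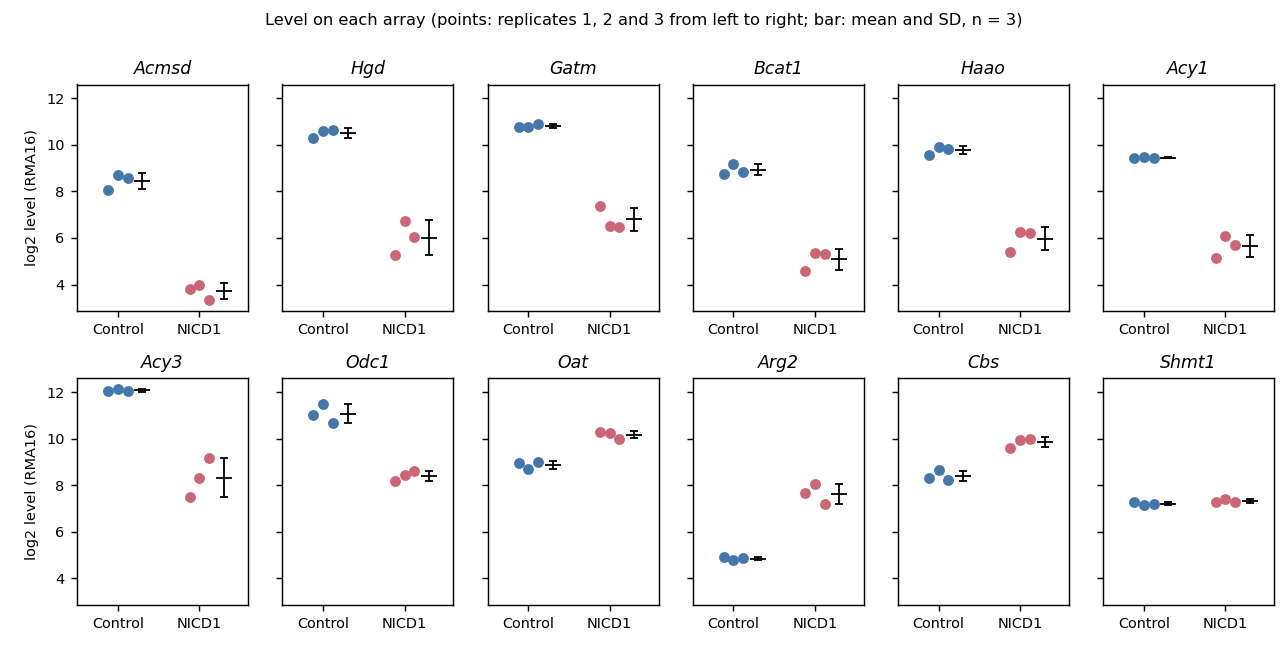
Log2 level (vertical axis, RMA16 values) of 12 of the genes on each array, with replicates 1, 2 and 3 from left to right in each group and the mean and SD of 3 arrays beside them. The groups do not overlap for 11 of the 12, and overlap for Shmt1, whose 6 values lie between 7.15 and 7.42.

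Among the 11 genes of glycine, one-carbon and sulfur amino acid metabolism 7 fell, 1 rose and 3 did not pass. Dimethylglycine and sarcosine, the products of choline and betaine, are demethylated by the mitochondrial enzymes Dmgdh and Sardh. Dmgdh stood at 8.76, 8.96 and 8.84 in Control and at 5.27, 6.53 and 6.25 in NICD1 arrays, a 7.14-fold fall (-2.84 log2, SE 0.27, limma adjusted p = 4.47e-05), and Sardh fell by 2.22 log2. Bhmt2, a methyltransferase that remethylates homocysteine, stood at 9.37, 9.89 and 9.82 in Control and at 6.08, 7.51 and 7.20 in NICD1 arrays, a 6.78-fold fall (-2.76 log2, SE 0.32, limma adjusted p = 0.000152). Its neighbour in the family, Bhmt, which uses betaine, stood at 5.60, 6.14 and 6.24 in Control and at 5.14, 5.24 and 5.57 in NICD1 arrays (-0.68, SE 0.18, limma adjusted p = 0.0177). Bhmt no longer passed when replicate 2 (-0.60) or 3 (-0.55) of Control, or replicate 1 (-0.59) or 2 (-0.64) of NICD1, was left out. Of its other probe sets, the brighter lay at 4.93 in Control and 4.11 in NICD1 (-0.82, limma adjusted p = 0.0341 over all probe sets). The dimmer lay at 3.25 in Control and 2.99 in NICD1 and did not pass (-0.26, limma adjusted p = 0.3). The call of Bhmt thus depended on the probe set. Bhmt2 fell by 2.08 log2 more than Bhmt (95% interval 1.0 to 3.17), and as the members of this family are alike in sequence their probes may share signal. Bhmt lay below the array median on 2 NICD1 arrays, where RMA compresses differences, so its smaller fall may be understated.

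The serine hydroxymethyltransferases, which move a carbon from serine to folate, parted by compartment. Shmt2, the mitochondrial enzyme, stood at 8.81, 9.13 and 9.07 in Control and at 6.56, 7.06 and 6.46 in NICD1 arrays, a 4.96-fold fall (-2.31 log2, SE 0.17, limma adjusted p = 8.49e-06). Shmt1, the cytosolic enzyme, stood at 7.28, 7.15 and 7.19 in Control and at 7.30, 7.42 and 7.27 in NICD1 arrays, a difference of 0.12 with a 95% interval of -0.10 to 0.34. The change of Shmt1 lay 2.43 log2 above that of Shmt2 (95% interval 1.88 to 2.98). Of the glycine cleavage system, which splits glycine in the mitochondrion, the aminomethyltransferase Amt fell by 1.11 log2 and the carrier Gcsh differed by -0.03 (95% interval -0.31 to 0.25). Gldc, its decarboxylase, stood at 8.69, 7.60 and 7.83 in Control and at 6.98, 8.10 and 6.97 in NICD1 arrays, so the groups overlapped (-0.69, limma adjusted p = 0.172). When each array was left out in turn, the Gldc difference lay between -1.07 without NICD1 replicate 2, where it passed as lower, and -0.37 without Control replicate 1 (limma adjusted p = 0.481). With array weights it was -0.28 (limma adjusted p = 0.585).

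Cbs and Cth carry out consecutive steps of transsulfuration, from homocysteine to cystathionine and on to cysteine, and moved in opposite directions. Cbs stood at 8.33, 8.67 and 8.24 in Control and at 9.61, 9.94 and 10.01 in NICD1 arrays, a 2.72-fold rise (1.44 log2, SE 0.15, limma adjusted p = 7.41e-05). Cth fell from 8.59 ± 0.13 to 7.72 ± 0.38 (-0.87, SE 0.18, limma adjusted p = 0.00442). The NICD1 arrays lay above every Control array for Cbs and below every Control array for Cth, and both calls held when each array was left out in turn.

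Of the 6 genes of tryptophan and lysine breakdown 5 fell, each by at least 2-fold. Acmsd, which diverts an intermediate of tryptophan breakdown away from quinolinate and NAD synthesis, had the largest fall of the 54 genes. It stood at 8.06, 8.69 and 8.57 in Control and at 3.81, 4.0 and 3.32 in NICD1 arrays, a 26.5-fold difference (-4.73 log2, SE 0.21, limma adjusted p = 6.95e-07). As the NICD1 levels lay below the median of each array, this fold may be understated. Haao, the dioxygenase that makes the substrate of Acmsd, stood at 9.58, 9.93 and 9.81 in Control and at 5.40, 6.27 and 6.22 in NICD1 arrays, a 14.0-fold fall. Kmo, the kynurenine hydroxylase upstream of both, stood at 9.05, 9.56 and 9.56 in Control and at 5.82, 7.18 and 7.01 in NICD1 arrays, a 6.57-fold fall. Kynu, the kynureninase that acts between Kmo and Haao, is not one of the 54 and was singled out after its values were seen. It stood at 6.37, 5.74 and 5.99 in Control and at 6.74, 6.38 and 6.31 in NICD1 arrays, so the groups overlapped (0.45, limma adjusted p = 0.0852). Tdo2, the mainly hepatic enzyme of the first step, lay between 2.54 and 3.0 on all arrays, below each array's median (-0.14, 95% interval -0.42 to 0.14). In lysine breakdown Aass, which carries out the first steps, fell by 1.79 log2, and Gcdh, the glutaryl-CoA dehydrogenase, fell by 2.22 log2.

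Both measured genes of the arginine and creatine route fell. Gatm, which makes the creatine precursor guanidinoacetate from arginine and glycine, stood at 10.76, 10.76 and 10.91 in Control and at 7.39, 6.53 and 6.48 in NICD1 arrays. This was a 16.1-fold fall (-4.01 log2, SE 0.22, limma adjusted p = 2.11e-06), and here NICD1 replicate 1 was the highest of its group. Asl, which releases arginine from argininosuccinate, stood at 8.90, 9.15 and 9.24 in Control and at 6.88, 7.02 and 6.94 in NICD1 arrays, a 4.44-fold fall (-2.15 log2, SE 0.12).

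The aspartate transaminases, which exchange amino groups between glutamate and aspartate, fell less than most genes of the list. The cytosolic Got1 stood at 9.46, 9.51 and 9.44 in Control and at 8.66, 8.72 and 8.47 in NICD1 arrays (-0.86, SE 0.10). The mitochondrial Got2 stood at 9.77, 9.66 and 9.72 in Control and at 9.07, 9.20 and 9.09 in NICD1 arrays (-0.59, SE 0.10). The change of Got1 minus that of Got2 was -0.26 log2 (95% interval -0.49 to -0.04).

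Of the amine and polyamine genes 2 fell and 1 did not pass. Odc1, the ornithine decarboxylase that starts polyamine synthesis and is induced by androgens in the mouse kidney, stood at 11.04, 11.50 and 10.70 in Control and at 8.17, 8.43 and 8.60 in NICD1 arrays. It fell 6.41-fold (-2.68 log2, SE 0.20, limma adjusted p = 8.81e-06), and its second probe set gave -2.60. Sat1, which acetylates polyamines for export or recycling, stood at 9.89, 9.99 and 10.06 in Control and at 9.72, 9.65 and 9.66 in NICD1 arrays (-0.31, SE 0.10, limma adjusted p = 0.0378). Sat1 no longer passed when replicate 2 (-0.30) or 3 (-0.26) of Control, or any replicate of NICD1 (-0.33, -0.29 and -0.30 for replicates 1 to 3), was left out. Ddc, which makes dopamine in the tubule, overlapped between the groups (-0.09, 95% interval -0.52 to 0.34).

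The aminoacylases, which release amino acids from their acetylated forms, fell by similar amounts. Acy1 stood at 9.44, 9.48 and 9.46 in Control and at 5.16, 6.10 and 5.69 in NICD1 arrays, a 14.0-fold fall (-3.81 log2, SE 0.20, limma adjusted p = 1.86e-06). Acy3, which acts on mercapturic acids, stood at 12.06, 12.16 and 12.06 in Control and at 7.51, 8.31 and 9.20 in NICD1 arrays, a 13.5-fold fall (-3.75 log2, SE 0.34, limma adjusted p = 3.07e-05). Their changes differed by -0.06 with a 95% interval of -1.20 to 1.09, which leaves room for a difference of more than 2-fold either way.

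**Figure D4:**
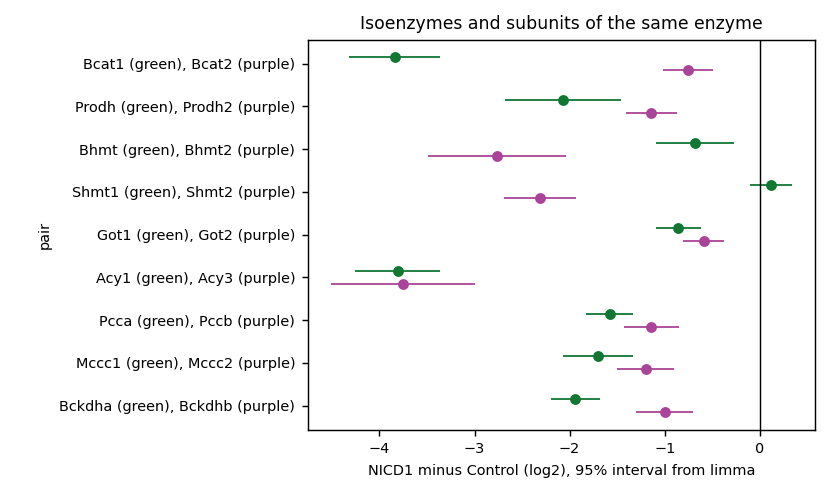
NICD1 minus Control difference (log2, horizontal axis, with the 95% interval from limma) of both genes in 9 pairs of isoenzymes or subunits of an enzyme, the first gene of each pair in green and the second in purple. The points lie far apart for Bcat1 and Bcat2, Bhmt and Bhmt2, and Shmt1 and Shmt2, and close together for Acy1 and Acy3.

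The 9 pairs were each compared by a two-sided exact permutation test over the 6 arrays of the difference between the pair's levels. With 3 arrays against 3 this test cannot give a p below 0.10, so no pair could pass 0.05. For 8 of the pairs p was 0.10, with a Benjamini-Hochberg adjusted p of 0.112 over the 9 pairs, and for Acy1 and Acy3 it was 1. The intervals given for pairs rest on the pooled SD of 3 arrays per group. They are not adjusted over the 9 pairs, so an interval that excludes 0, as for Got1 and Got2, is not a passed test. By compartment, the median difference was -1.20 for the 31 mitochondrial genes, of which 27 fell and 2 rose, and -1.51 for the 22 measured cytosolic genes, of which 18 fell and 1 rose. Both compartments spanned wide ranges, from -4.01 to 2.79 and from -4.73 to 1.44.

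The NICD1 arrays did not show the falls to the same degree. NICD1 replicate 2 had the highest level of its group for 34 of the 46 falling genes and NICD1 replicate 1 the lowest for 27, while over all 2978 falling genes of the array these counts were 1245 and 1228. For 9 falling genes, Hgd, Hpd, Fah, Prodh, Dmgdh, Bhmt2, Kmo, Acy3 and Aass, the NICD1 arrays spanned more than 1 log2, and NICD1 replicate 1 was the lowest for all 9. Among the 16 proximal tubule markers that fell, NICD1 replicate 3 was the highest for 12 and NICD1 replicate 1 the lowest for 13. Acy3 followed that order, at 9.20 in NICD1 replicate 3, and the other 8 genes, apart from Hpd, were highest in NICD1 replicate 2.

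Other genes of amino acid breakdown, from a list of 48 that are not among the 55, moved mostly in the same direction. This list too was chosen with earlier results of these data known, so it is not separate support. Of 42 measured, 31 fell, 2 rose and 9 did not pass, with a median difference of -1.24. Over all genes 14.9% fell and 17.8% rose. The largest falls were those of Aspa, which splits N-acetylaspartate (9.71-fold), Aadat of the kynurenine and lysine routes (7.23-fold), Agxt2, an aminotransferase of dimethylarginine and glyoxylate metabolism (6.98-fold), and Aldh7a1 of lysine breakdown (6.45-fold). Pm20d1, an N-acyl amino acid hydrolase, and Suox, the sulfite oxidase, fell 5.71-fold and 5.67-fold. Asrgl1, an asparaginase, rose by 0.76 log2. Hal, the histidase, lay at 4.33 to 4.51 in Control and 4.70 to 5.24 in NICD1 arrays (0.46, limma adjusted p = 0.0404), below the median of every array. Aldh4a1, which follows Prodh and Oat in turning their common product into glutamate and was singled out after its values were seen, fell by 1.87 log2.

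A separate list holds 21 genes that make or convert amino acids, creatine, polyamines or folate cofactors. It leaves out Gatm, Odc1, Asl and Glul, which also catalyse synthesis and fell among the 54 genes above. Of the 21 listed genes 13 were measured, of which 3 fell, 4 rose and 6 did not pass, with a median difference of -0.02. As 14.9% of all genes fell and 17.8% rose, counts this small are no result about the list as a whole. Asns, the asparagine synthetase, stood at 5.19, 4.80 and 5.10 in Control and at 7.38, 7.17 and 7.45 in NICD1 arrays, a 4.92-fold rise (2.30 log2, SE 0.13, limma adjusted p = 2.77e-06). Aldh18a1, which makes the proline precursor from glutamate, rose by 1.52 log2, and Mthfd2, an enzyme of the mitochondrial folate cycle, rose by 1.37. Smox, the spermine oxidase, rose by 0.61 log2. The falling genes were Mthfd1, the cytosolic folate enzyme (-1.12 log2), Azin1, which protects Odc1 from its inhibitor antizyme (-0.98), and Gamt, which completes creatine synthesis after Gatm (-0.66).

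**Figure D5:**
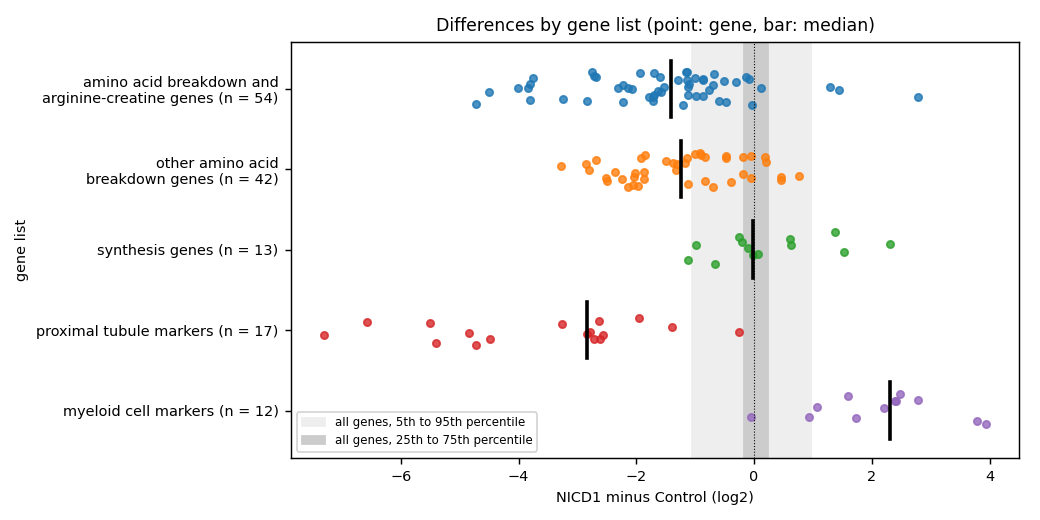
NICD1 minus Control difference (log2, horizontal axis) of each gene in 5 lists, with a black bar at each list's median, over shading that spans the 25th to 75th percentile (-0.17 to 0.23) and the 5th to 95th percentile (-1.05 to 0.96) of all genes. Of the 54 amino acid breakdown and arginine-creatine genes 35 lie below the 5th percentile, the synthesis genes lie on both sides of 0, and the medians of the proximal tubule and myeloid markers are -2.83 and 2.30.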

How the data were processed

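Total RNA of 6 whole-kidney samples of mice was hybridised to Affymetrix arrays. The deposited values are log2 expression per probe set, which the authors normalized with the RMA16 algorithm in GeneSpring, per the labels' protocols (GeneSpring version: not given in the sources used here). RMA evens out the distribution between arrays and compresses differences of dim probe sets. No detection calls, scan dates or batches are given, so precision rests on the 3 arrays per group.

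Of 34760 probe sets, 6573 numbered below the lowest annotated one, the range used for control features, were left out, and 21640 had 1 symbol in the platform annotation, giving 19937 genes. Mut, and Ccbl1 and Ccbl2 of another list, were matched to their current symbols through RefSeq synonyms. No filter on low levels was applied. The comparison used R 4.3.3 with limma 3.58.1 (lmFit, eBayes, two-sided, adjusted p threshold 0.05), checked on simulated data. The members and lists were chosen with earlier results of these data known, and by a rule the text gives array values for the largest differences of each role, all rising genes and all pairs. Alternatives were other probe set summaries, scalings, filters, variance models, thresholds, a replicate block and leaving out each array. Same-numbered arrays did not deviate together, with correlations of -0.0687, -0.0115 and -0.0702.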

Additional observations from a re-analysis of the deposited data

How the results depend on the processing

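The direction of all 49 called genes among the 54 held under every alternative run. Requiring a change beyond 2-fold ended 22 calls, and under the other alternatives calls were lost for Fah, Bhmt and Sat1 alone. Quantile normalization and the replicate block each ended the call of Sat1, at -0.21 and -0.31, and the trended robust variance model ended that of Fah. At a stricter adjusted p threshold of 0.01 the calls of Fah, Bhmt and Sat1 were lost. Requiring a change beyond 2-fold left 26 falling and 1 rising gene of the 54, 18 falling and 0 rising of the other breakdown genes, 0 falling and 1 rising of the synthesis genes, and 507 falling and 374 rising of all genes, against 2978 and 3551. With the replicate number as a block, 45 of the 54 genes fell and 3 rose. The labels do not say what a replicate number stands for, same-numbered arrays did not deviate together, and the block moved the counts over all genes to 2762 falling and 3219 rising. Of the other breakdown genes 2 rose, and the count was 1 under quantile normalization, under array median centring, without the dimmest 40% of genes, over all probe sets outside the control range and at the stricter threshold, and 1 to 2 when each array was left out. The pair differences kept their direction under the 3 alternatives run for them. Leaving out the dimmest genes removed Tdo2 alone. Dim levels limit the folds of Acmsd, Bcat1 and Hpd, which were below the array medians in NICD1 kidneys. The same limit holds for the rise of Arg2, which was below the array medians in Control kidneys.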

Other observations

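Ttr, which encodes a thyroid hormone carrier made mainly in liver and was listed here as a hepatocyte marker, stood at 5.08, 9.24 and 9.15 in Control replicates 1 to 3 and at 5.08, 4.50 and 5.02 in NICD1 arrays. Control replicate 1 thus lay with the NICD1 arrays, and the groups overlapped, although limma called the gene lower (-2.95, SE 0.92, adjusted p = 0.0349). The other hepatocyte markers measured, Alb, Apoa1 and Apoa2, differed by -0.30, 0.01 and -0.12 log2 and did not pass. Among the 54 amino acid genes the widest spread of Control arrays, 1.4 log2, was that of Hpd, with Control replicate 1 lowest.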
